A study of Mus musculus with 6 samples.

Results

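A set of 9 genes that mark B cells was followed through cultures of activated T cells: 9 of the 45808 rows of the deposited count table, taken by symbol alone. They are Cd79a and Cd79b, the signaling chains of the B cell receptor, the surface proteins Ms4a1, Cd22 and Cr2, the transcription factor Pax5, and the immunoglobulin constant genes Ighm, Ighd and Igkc. T cells had been purified from the spleens of 2-month-old C57BL/6 mice and activated in culture with antibodies to CD3 and CD28 plus IL-2. The 3 wild-type libraries were compared with 3 libraries labelled Drp1-/-, called KO here; Drp1, encoded by Dnm1l, is the GTPase that divides mitochondria. The labels name neither a Cre driver nor the deleted exons, do not say whether animals were pooled, and do not state that each replicate was its own animal or culture. The p-values therefore reflect the spread among these libraries alone, which may be technical.

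A B cell recognizes antigen through membrane immunoglobulin, made of heavy and light chains, which cannot signal on its own. The CD79A and CD79B proteins carry the signal inward through tyrosine motifs, CD22 dampens it, and CR2, bound to complement on the antigen, amplifies it. PAX5 keeps the B cell identity program active. Naive B cells make IgM and IgD by alternative processing of a single heavy chain transcript, and activation is accompanied by loss of IgD and by switching to other constant genes such as Ighg1. The Ighm locus can also be transcribed in T cells from the heavy chain enhancer without an assembled variable region, so a count on Ighm is not by itself a count of B cells.

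Library totals ran from 24738017 to 34730475 counts. On principal component 1 the first wild-type replicate was the outlying library, at -44.9 against -20.9 and -20.2 for the other wild-type libraries. Levels are given as CPM, the counts of a gene relative to its TMM-scaled library total. Dnm1l ranged from 117 to 123 CPM among wild-type libraries and from 92.6 to 100.6 CPM among KO libraries. Xist counts were 0 to 3 per wild-type library and 12950 to 16862 per KO library, while the Y-linked gene Ddx3y was read in all 6, at 106 to 153 CPM in the wild-type group and 69.7 to 77.2 CPM in KO. Each KO library thus held reads of both Xist and a Y-linked gene, and the labels do not say whether a library pools male and female animals. The sexes of the animals, which the labels do not give, therefore cannot be told apart from the genotype in any comparison that follows.

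The label was checked against marker genes. All 20 genes of a list of other B cell identity genes passed the expression filter. The 19 listed T cell genes summed to 6441 to 6650 CPM in the wild-type group and 5711 to 5851 CPM in KO, against 547 to 556 and 466 to 495 CPM for the 9 B cell genes. These sums cover unlike numbers of genes and are not scaled by gene length. The antibody secreting cell list was mixed: 6 of its 8 genes in the table passed the filter, among them Mzb1 at 676 to 877 counts per library, while Jchain had 5 to 12 counts and Tnfrsf17 had 0. The myeloid and dendritic list was mixed too: 7 of 16 passed the filter, among them Batf3 at 1366 to 1972 and Itgam at 73 to 124 counts per library, while Csf1r had at most 4 counts and Xcr1, Siglech, Cd209a, S100a8 and S100a9 had 0 in every library. Mzb1, Itgam and the genes at or near 0 were named after their values were seen. Whether the reads of the 9 genes came from B cells that survived purification or from other cells in the cultures was not tested.

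Promoter sequence was at hand for 4 of the 9 genes, from the RefSeq windows on GRCm38.p6, which is the mm10 assembly. The 250 bases before the RefSeq start of Cd22 (chr7:30879029-30879278, minus strand) and Cd79a (chr7:24897247-24897496, plus strand) are shown, the first as the only one of these 4 genes that passed the test and the second as a chain of the receptor itself, which did not pass. Capitals mark the match to the palindromic motif of EBF1, the factor that acts with PAX5 in B cells.
Cd22: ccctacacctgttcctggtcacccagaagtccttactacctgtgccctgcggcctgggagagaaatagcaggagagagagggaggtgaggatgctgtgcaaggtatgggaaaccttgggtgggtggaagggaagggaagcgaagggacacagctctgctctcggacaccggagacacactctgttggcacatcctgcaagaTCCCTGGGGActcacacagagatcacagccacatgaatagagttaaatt
Cd79a: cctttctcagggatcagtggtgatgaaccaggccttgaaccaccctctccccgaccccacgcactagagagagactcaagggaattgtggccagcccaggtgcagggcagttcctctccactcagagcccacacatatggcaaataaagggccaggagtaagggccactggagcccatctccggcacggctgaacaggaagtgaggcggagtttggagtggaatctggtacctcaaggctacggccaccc
The match in Cd22 begins 49 bases before the RefSeq start. On the GENCODE gene positions, the whole Cd22 window lies inside the gene (30865402 to 30880342, minus strand). Part of the Cd79a window also lies inside its gene, which begins at 24897381 on the plus strand. In all 3 motifs were searched on both strands, and the search found no other match in the windows of Cd22, Cd79a, Pax5 and Cr2. The EBF1 motif occurs in 0.779% of 32851 RefSeq windows of that length, the octamer ATGCAAAT of OCT factors in 1.60% and the motif GAGGAAGT of PU.1 in 2.44%. A match describes the letters only, and binding was not measured here.

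The 9 genes did not move as a block between the genotypes. Cd22, Ighm and Ighd fell in KO, Ms4a1 rose by a margin that many settings removed, and Cd79a, Cd79b, Pax5, Cr2 and Igkc did not pass the test. Ighd had the largest change that passed, 37.7% lower in KO, while its neighbour Ighm was 15.6% lower. All 9 genes passed the expression filter, and 4 of the 9 (44.4%) were called at an adjusted p under 0.05 by edgeR's quasi-likelihood test with Benjamini-Hochberg adjustment, 1 higher and 3 lower. Across all 14209 tested genes 52.9% were called, 26.7% higher and 26.1% lower, so the share of called B cell genes was near the background. Their median log2 fold change was -0.14, against 0.01 over all tested genes. Without wild-type replicate 1 there were again 4 calls, all lower, since Cd79b entered and Ms4a1 left. In bulk RNA, fewer cells of a type and less RNA per cell cannot be told apart.

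**Figure D1:**
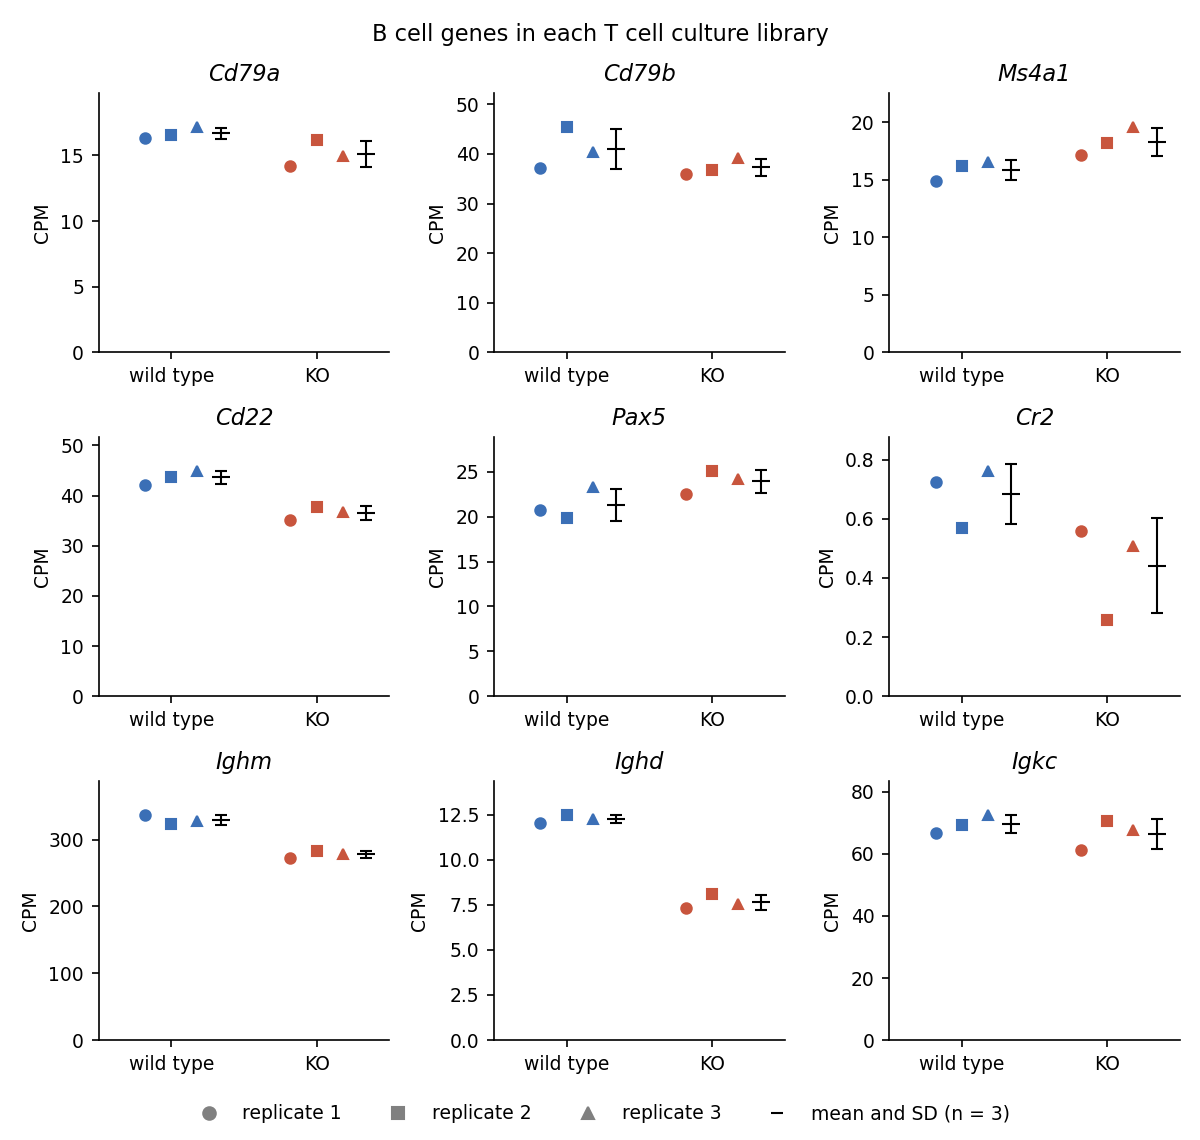
CPM (y axis, from 0) of each of the 9 B cell genes in the 3 wild-type and 3 KO libraries; symbols give the replicate, and the bar is the mean with SD (n = 3). Ighd lies between 12.01 and 12.5 CPM in the wild-type group and between 7.30 and 8.09 CPM in KO, with no overlap, whereas Igkc overlaps.

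The signaling chains came first in the receptor. Cd79a (chromosome 7, 24897381 to 24902197, mm10, plus strand) was at 16.3, 16.6 and 17.1 CPM in wild-type replicates 1, 2 and 3 and at 14.2, 16.2 and 14.9 CPM in KO replicates 1, 2 and 3. Every KO library was below every wild-type library, by as little as 16.2 against 16.3 CPM. The log2 fold change of Cd79a was -0.14 ± 0.07 (SE), which did not pass (edgeR adjusted p = 0.126).

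Cd79b (chromosome 11, 106311341 to 106314762, minus strand) was at 37.2, 45.4 and 40.4 CPM in the wild-type group and 35.9, 36.8 and 39.2 CPM in KO. Wild-type replicate 1 lay among the KO libraries, so the groups overlapped. The log2 fold change of Cd79b was -0.14 ± 0.08 (edgeR adjusted p = 0.147), and without wild-type replicate 1 it was -0.20 and passed (edgeR adjusted p = 0.00867). Per kilobase of exon, Cd79a stood at 0.402 ± 0.0379 of Cd79b in the wild-type group and 0.398 ± 0.0299 in KO (SD, n = 3 each), with overlapping libraries.

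The surface coreceptors went in different directions. Cd22, a sialic acid binding inhibitory receptor (chromosome 7, 30865402 to 30880342, minus strand), was at 42.2, 43.8 and 44.9 CPM in the wild-type group and 35.1, 37.7 and 36.8 CPM in KO. All 3 KO libraries lay below the wild-type range. Cd22 fell by 0.26 ± 0.06 on the log2 scale (edgeR adjusted p = 0.00305), or 16.4%, and passed under all 14 alternatives, with adjusted p from 0.000202 to 0.0276.

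Ms4a1 encodes CD20, a membrane protein of mature B cells (chromosome 19, 11249675 to 11266241, minus strand). It was at 14.9, 16.1 and 16.5 CPM in the wild-type group and 17.1, 18.1 and 19.5 CPM in KO, with every KO library above every wild-type library. Its log2 fold change of 0.20 ± 0.08 passed narrowly (edgeR adjusted p = 0.0462). The call was lost under 9 of 14 alternatives, where the adjusted p reached 0.188, among them DESeq2 (adjusted p = 0.107) and leaving out wild-type replicate 1 (0.0804), 2 (0.0830) or 3 (0.0603) or KO replicate 2 (0.0978) or 3 (0.188), while the direction stayed. The ratio of Ms4a1 to Cd22 counts, chosen after both values were seen, was 0.353, 0.369 and 0.367 in the wild-type group and 0.488, 0.482 and 0.531 in KO. These ratios did not overlap, and they do not depend on how libraries are scaled.

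Cr2, the complement receptor of mature B cells (chromosome 1, 195136811 to 195176716, minus strand), was the weakest of the 9. It had 17, 17 and 24 counts in the wild-type group and 20, 8 and 17 in KO, or 0.685 ± 0.101 and 0.442 ± 0.161 CPM (SD, n = 3 each). KO replicate 2 was lowest, at 0.258 CPM. The log2 fold change of Cr2 was -0.61 ± 0.30 (edgeR adjusted p = 0.119), and without KO replicate 2 it was -0.35. With 8 to 24 counts per library, Cr2 had the widest SE of the 9 genes.

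Pax5 (chromosome 4, 44524757 to 44710487, minus strand) was at 20.7, 19.9 and 23.3 CPM in the wild-type group and 22.5, 25.1 and 24.2 CPM in KO. Wild-type replicate 3 lay within the KO range. The log2 fold change of Pax5 was 0.17 ± 0.08 (edgeR adjusted p = 0.0916), and it passed when library totals alone set the scaling (0.24, adjusted p = 0.0291) and without wild-type replicate 3 (0.23, adjusted p = 0.0348). The point estimate was thus on the side of Ms4a1 and not of Cd22. Genes on the opposite strand overlap exons of Pax5 and Cd22, and the rows of those genes held at most 6 counts in any library. The strand setting of the counting is not given, so these counts do not show whether the overlap affected Pax5 or Cd22.

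**Figure D2:**
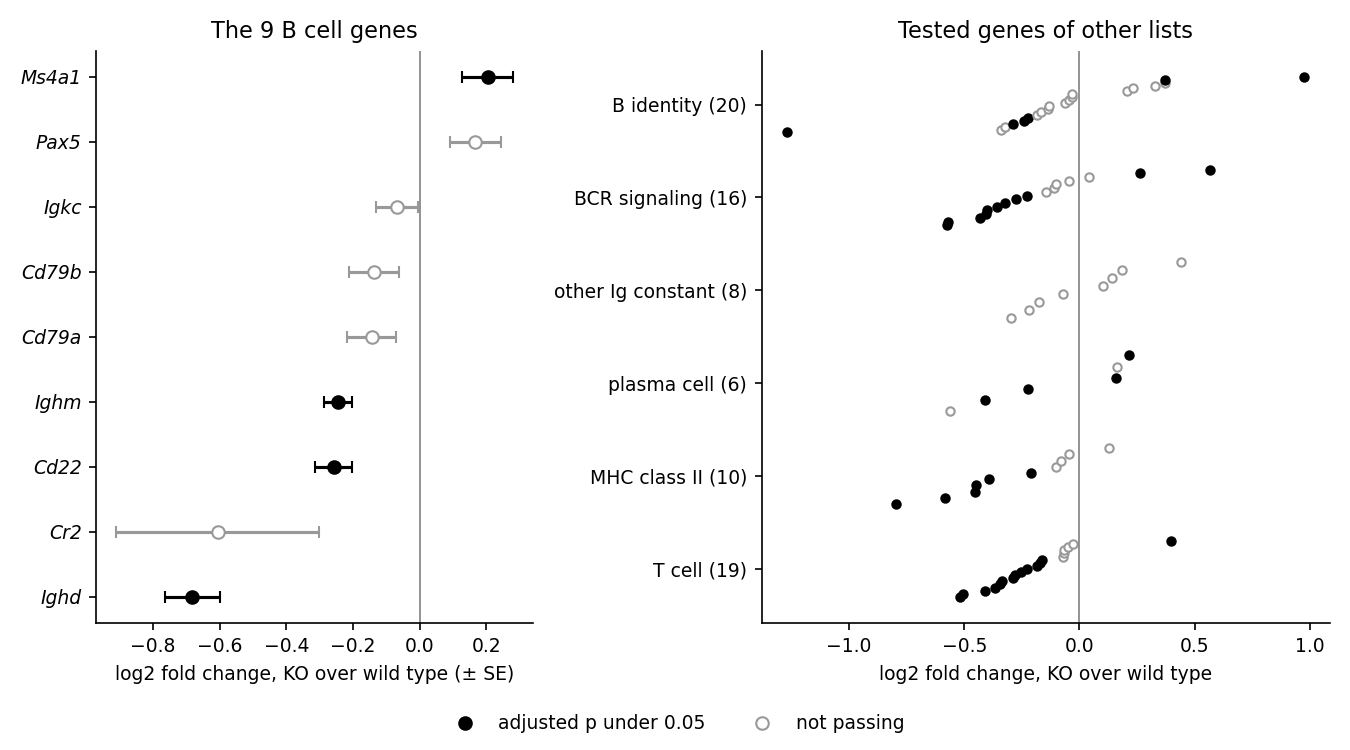
Left, log2 fold change of KO over wild type with its SE (x axis) for the 9 B cell genes; right, the same quantity without SE for the tested genes of 6 other lists (number tested in brackets), where filled points passed an adjusted p under 0.05. Ighd (-0.68) and Cr2 (-0.61) lie farthest to the left among the 9, and of these only Ighd passed.

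The immunoglobulin constant genes carried most of the signal. Ighm, the mu heavy chain constant gene (chromosome 12, 113418558 to 113422730, minus strand), supplied 57.0% to 61.5% of the summed CPM of the 9 genes. It was at 337, 323 and 328 CPM in the wild-type group and 273, 282 and 279 CPM in KO, with no overlap. Ighm fell by 0.24 ± 0.04 on the log2 scale (edgeR adjusted p = 0.000887) and passed under all 14 alternatives.

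Ighd, the delta constant gene just downstream on the same chromosome (113406604 to 113416324), was at 12.01, 12.5 and 12.2 CPM in the wild-type group and 7.30, 8.09 and 7.53 CPM in KO. The KO libraries lay well below the wild-type range. Ighd fell by 0.68 ± 0.08 on the log2 scale (edgeR adjusted p = 0.000138), and its fold change stayed between -0.72 and -0.61 under 14 alternatives, all of which it passed.

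Igkc, the kappa light chain constant gene (chromosome 6, 70726435 to 70726966, plus strand), was at 66.9, 69.4 and 72.6 CPM in the wild-type group and 61.2, 70.5 and 67.6 CPM in KO. The groups overlapped. The log2 fold change of Igkc was -0.07 ± 0.06 (edgeR adjusted p = 0.383), with library totals alone as the scaling it was 0.0054, and without KO replicate 1 it was -0.016. Under that scaling the 3 falls remained and Pax5 joined Ms4a1 above the threshold, giving 2 higher and 3 lower.

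Counted by separation, 6 of the 9 genes had libraries that did not overlap between genotypes, 5 with KO below and 1 with KO above. Across all tested genes 63.3% did not overlap, 30.8% with KO below and 32.5% with KO above.

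Ratios between genes within a library are free of the scaling. Ighd counts were 3.56%, 3.87% and 3.74% of Ighm counts in the wild-type group and 2.68%, 2.86% and 2.70% in KO. The KO share was lower in all 3 libraries, at 2.75% ± 0.101 against 3.72% ± 0.152 (SD, n = 3 each). Ighg1 counts were 9.23%, 9.96% and 11.5% of the counts on Ighm, Ighd and the Ighg genes in the wild-type group and 12.6%, 14.2% and 13.4% in KO. Here too the groups did not overlap, with KO higher. Ighm, the largest part of that divisor, fell by 0.24 on the log2 scale. Ighg1 itself did not pass (log2 0.18 ± 0.09, edgeR adjusted p = 0.107). Igkc made up 88.2% ± 1.05 of the kappa and lambda constant counts in the wild-type group and 87.2% ± 0.793 in KO (SD, n = 3 each), with overlap.

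Of 10 ratios reported, 5 did not overlap between the genotypes. Each of these 5 had a 2-sided exact permutation p of 0.1, the smallest that 3 against 3 libraries allow, and 0.2 after Benjamini-Hochberg adjustment over the 10. The ratios of Ighg1, of Ms4a1 to Cd22 and of Ighm to Igkc, and the testing of any ratio, were added after values were seen.

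**Figure D3:**
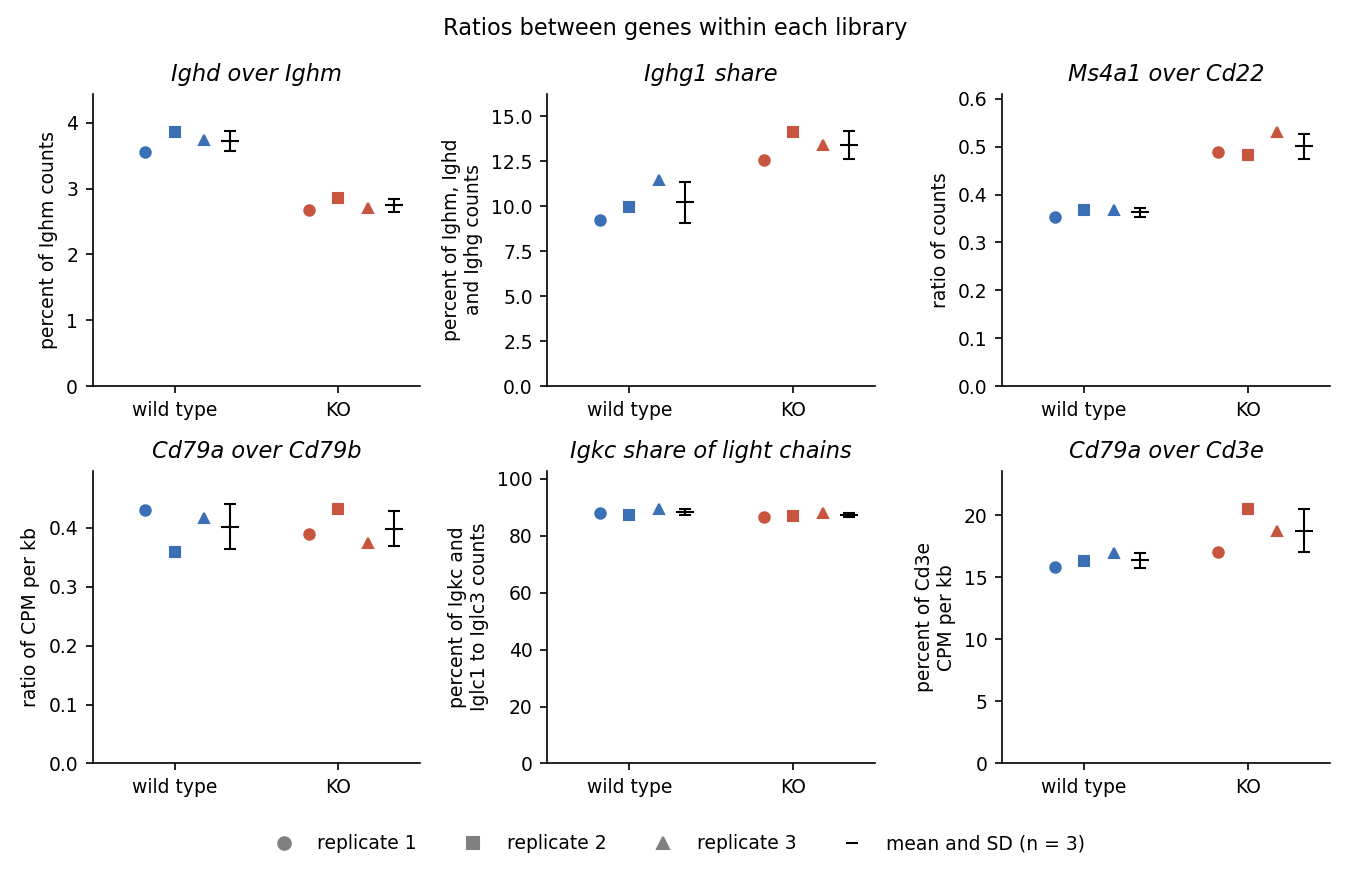
Ratios within each library (y axes, from 0, with units on each panel) by genotype; symbols give the replicate, and bars the mean and SD (n = 3). Ighd over Ighm is lower and the Ighg1 share higher in all 3 KO libraries, while Cd79a over Cd79b overlaps at 0.402 and 0.398.

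Compared per kilobase of exon, the 9 genes spanned a wide range of levels. Over all 6 libraries Ighm averaged 161 CPM per kb and Igkc 128, followed by Cd79b at 27.4, Cd79a at 10.9, Cd22 at 7.95, Ighd at 5.23, Ms4a1 at 2.76, Pax5 at 2.55 and Cr2 at 0.0695. Ranges of neighbours in this order did not overlap, except for Ms4a1 (2.40 to 3.16 CPM per kb) and Pax5 (2.24 to 2.83 CPM per kb). Ighm stood at 1.34 ± 0.0763 times Igkc per kilobase in the wild-type group and 1.18 ± 0.0658 times in KO (SD, n = 3 each). The exon lengths are unions over all annotated transcripts, so a gene with long alternative ends is understated.

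On the same per-length scale Cd3e, a chain of the T cell receptor complex, was at 70.0 CPM per kb in the wild-type group and 55.4 in KO. Cd79a was 16.4% ± 0.566 of Cd3e in the wild-type group and 18.8% ± 1.72 in KO (SD, n = 3 each). This ratio was higher in every KO library. For Cd79b the ratio to Cd3e was 41.0% ± 4.44 and 47.1% ± 3.13 (SD, n = 3 each), with overlapping libraries. Cd3e itself fell by 0.34 ± 0.04 on the log2 scale (edgeR adjusted p = 0.000180), so the divisor moved more than Cd79a.

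**Figure D4:**
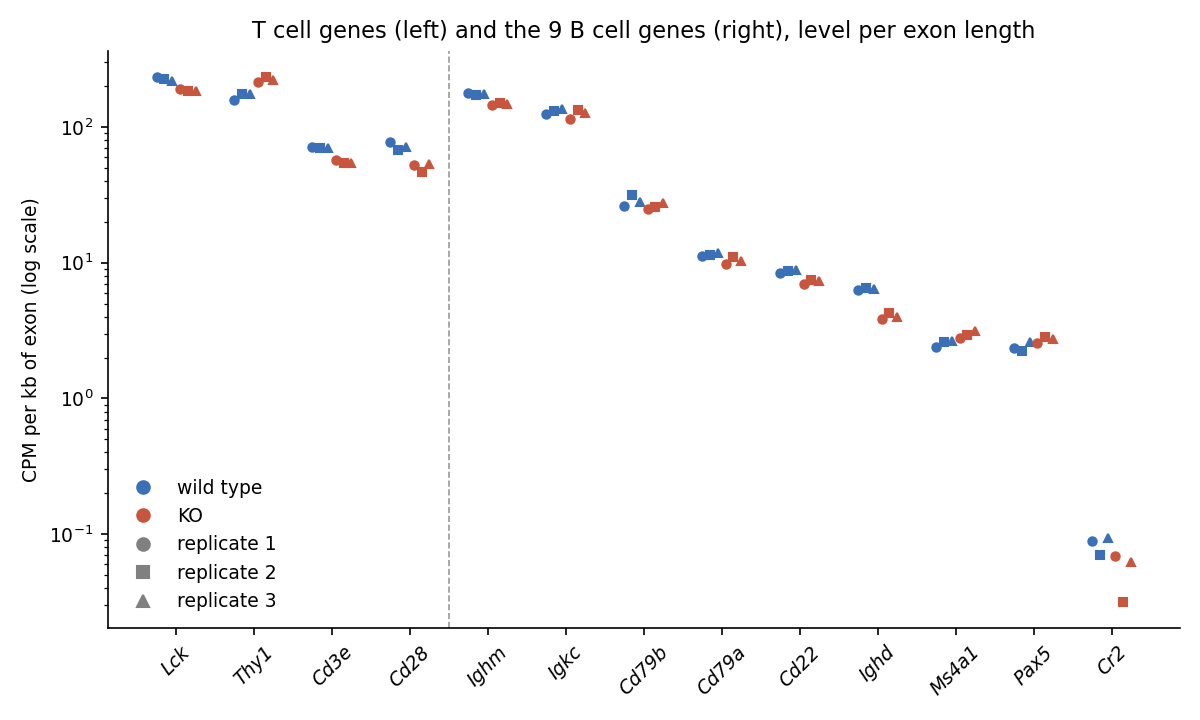
CPM per kb of exon (log scale) in each library for 4 T cell genes (left of the dashed line) and the 9 B cell genes in order of level (right), coloured by genotype with symbols for replicates. Ighm at 161 and Igkc at 128 CPM per kb lie in the range of the T cell genes, and Cr2 at 0.0695 lies lowest.

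Constant gene counts were set beside immunoglobulin variable segments, which are read when an assembled chain is transcribed. Of 183 Ighv rows 108 had a count in some library and 65 in all 6, and of 158 Igkv rows 105 and 62 did. The Ighv rows summed to 511 to 727 counts per wild-type library and 623 to 693 per KO library, and the Igkv rows to 668 to 1018 and 974 to 1075. No Ighv or Igkv row dominated a library: the largest held 6.20% to 9.08% of Ighv counts and 6.05% to 8.15% of Igkv counts. The highest by mean were Igkv10-96 (2.24 ± 0.356 CPM in the wild-type group and 1.82 ± 0.162 in KO), Igkv14-111 (1.70 ± 0.0182 and 1.66 ± 0.154) and Igkv1-117 (1.75 ± 0.280 and 1.54 ± 0.502), each SD with n = 3. None of these 3 passed the test.

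Summed per kilobase, Igkv rows amounted to 0.639 ± 0.0252 of Igkc in the wild-type group and 0.673 ± 0.0319 in KO. Of the 158 Igkv rows, 156 had an exon length and entered that sum. Ighv rows amounted to 0.291 ± 0.0144 of the summed heavy chain constant genes in the wild-type group and 0.304 ± 0.0139 in KO (SD, n = 3 each). Both ratios overlapped between genotypes. Variable segments resemble each other, and the sources used here do not give how reads matching several of them were counted. These sums may be too low. Among the 20 Ighv rows tested 0 passed in edgeR, where 1 had an unadjusted p under 0.05, and 0 passed in limma-voom. DESeq2, run without the expression filter, covered 108 Ighv rows and called 0. Among 34 Igkv rows 1 fell, Igkv12-44 (log2 -0.59 ± 0.19, edgeR adjusted p = 0.0240). Limma-voom called 1 of the 34, and DESeq2 called 0 of 105 Igkv rows.

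**Figure D5:**
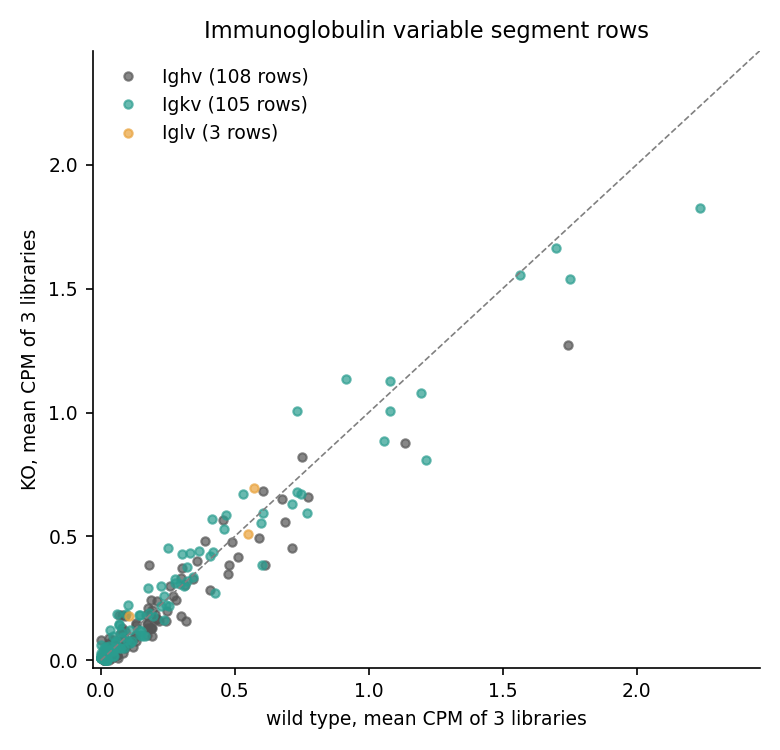
Mean CPM over 3 libraries in wild type (x axis) and KO (y axis) of each immunoglobulin variable segment row with a count; the dashed line marks equal values. Points spread along the line over many segments, up to Igkv10-96 at 2.24 CPM in the wild-type group and 1.82 CPM in KO.

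Other B cell genes were read from lists written from general knowledge. Of 20 identity genes 2 rose, 4 fell and 14 did not pass, a called share of 30.0% with a median log2 fold change of -0.10. This list was thus called less often than the background, where the share was 52.9% of all tested genes. With library totals alone as the scaling 5 rose and 1 fell, so the balance of this list depended on the scaling. Pou2af1, the coactivator OCA-B, was at 61.4 ± 7.38 CPM in the wild-type group and 60.0 ± 1.88 CPM in KO and did not pass (edgeR adjusted p = 0.760). Fcer2a, the low affinity IgE receptor CD23, rose from 49.1 ± 10.1 to 63.8 ± 4.54 CPM (log2 0.37 ± 0.12, adjusted p = 0.0284), with wild-type replicate 1 lowest at 37.6 CPM. Its call was lost without KO replicate 2 (adjusted p = 0.0917) or 3 (0.0850). Cd180 rose at a low level, from 0.532 ± 0.104 to 1.06 ± 0.192 CPM. Cd24a, which other blood cells share, fell from 24.3 ± 5.12 to 10.0 ± 0.336 CPM (log2 -1.27 ± 0.13, adjusted p = 6.90e-05).

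Of 16 genes for signaling below the receptor, 9 fell, 2 rose and 5 did not pass (median -0.25). The called share was 68.8% against 52.9% of all tested genes, and 6 fell and 2 rose with library totals alone. T cells express several of them. Malt1, a paracaspase used by both antigen receptors, fell from 469 ± 40.6 to 315 ± 4.35 CPM, and Ptpn6, the phosphatase SHP-1, fell from 372 ± 14.8 to 307 ± 1.56 CPM. Pik3ap1, the adaptor BCAP, fell from 76.4 ± 1.88 to 51.4 ± 2.01 CPM (log2 -0.57 ± 0.05, edgeR adjusted p = 4.16e-05). The 2 that rose were Btk, the X-linked tyrosine kinase (log2 0.57 ± 0.12), and Plcg2, a phospholipase (log2 0.26 ± 0.06), both named after their values were seen.

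Among 8 tested switched and lambda constant genes 0 passed in edgeR, with 0 at an unadjusted p under 0.05, and 0 passed in limma-voom. DESeq2, run without the expression filter, covered 9 of these genes and called 0. With library totals alone 2 were called higher, Ighg1 and Iglc1, and without wild-type replicate 1 Iglc1 was (adjusted p = 0.0180). Ighg1 was the highest of them, at 36.6, 38.2 and 45.4 CPM in the wild-type group and 41.7, 49.4 and 45.7 CPM in KO (log2 0.18 ± 0.09, edgeR adjusted p = 0.107, or 0.0178 without wild-type replicate 3). Ighg3 was at 5.30 ± 0.334 and 4.57 ± 0.572 CPM and Iglc1 at 1.44 ± 0.355 and 1.93 ± 0.210 CPM (SD, n = 3 each). Over these lists of identity, signaling and constant genes 17 of 44 tested genes (38.6%) were called, against 52.9% of all tested genes, 4 higher and 13 lower (29.5%, against 26.1%). With library totals alone the split turned to 9 higher and 7 lower, and without KO replicate 2 there were 11 calls.

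Genes shared with antibody secreting cells moved both ways, 2 higher, 2 lower and 2 not passing among 6 tested. Of the 6, 66.7% were called, against 52.9% of all tested genes. Xbp1 rose (log2 0.22 ± 0.06) and Prdm1, encoding BLIMP-1, fell (log2 -0.41 ± 0.10). Irf4 passed narrowly (log2 0.16 ± 0.06, edgeR adjusted p = 0.0406) and lost its call in DESeq2 (0.0626) and without any 1 of 5 libraries, all but wild-type replicate 3. Mzb1 was lower (log2 -0.22 ± 0.07, adjusted p = 0.0266) and lost its call with library totals alone (0.117) and without KO replicate 1 or 2 or wild-type replicate 2. Activated T cells express these transcription factors too.

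Antigen presentation genes of MHC class II, which B cells carry constitutively, fell in 6 of 10 cases and rose in 0, with 4 not passing (median -0.30), and in 5 with library totals alone. Their called share was 60.0%, against 52.9% of all tested genes, of which 26.1% fell. H2-Ab1 fell from 114 ± 10.4 to 65.4 ± 2.04 CPM (log2 -0.80 ± 0.07) and H2-Eb1 from 93.6 ± 1.85 to 68.4 ± 0.693 CPM (log2 -0.45 ± 0.05). Cd74, the invariant chain, was at 180.1 ± 5.40 and 168 ± 5.15 CPM and did not pass (edgeR adjusted p = 0.0877). It passed without wild-type replicate 1 (0.0192) and with replicate number as a block (0.0439).

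Genes on the lists for other cell types moved in the same libraries. Which cells their reads came from, and their part in the B cell values, was not tested. In the T cell list 13 of 19 genes fell and 1 rose (median -0.23), or 9 and 1 with library totals alone. That is a called share of 73.7%, against 52.9% of all tested genes. Lck, the kinase of the T cell receptor, fell from 661 ± 22.1 to 545 ± 13.4 CPM, Cd28 from 441 ± 31.9 to 310.0 ± 23.2 CPM, and the member that rose was Thy1 (log2 0.40 ± 0.05). In the natural killer list 5 of the 7 genes tested rose and 1 fell, a called share of 85.7% against the same 52.9%. The expression filter can admit a weak gene through a single group, so this share can lean toward genes high in that group. In DESeq2, run without that filter, 4 of 9 were higher and 1 lower. The list summed to 137 to 150.1 CPM in the wild-type group and 170.0 to 185 CPM in KO. Its highest members were Klrk1 (log2 0.29 ± 0.06) and Eomes (log2 0.82 ± 0.11), Klra7 fell (log2 -0.54 ± 0.09), and the defining gene Ncr1, named for that and not by its rank, was at 0.181 ± 0.0920 and 0.634 ± 0.121 CPM.

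All 4 tested red cell and platelet genes of 10 rose, as did 26.7% of all tested genes. The expression filter removed the other 6, and a weak gene can pass it through KO alone. In DESeq2, run without that filter, 5 of 9 were higher and 0 lower. The genes of this list summed to 7.92 to 10.4 CPM in the wild-type group and 21.6 to 24.4 CPM in KO. Those that rose included Pf4 (log2 2.06 ± 0.19), Ppbp (log2 2.23 ± 0.22) and Itga2b (log2 0.90 ± 0.10), while Hba-a2 was at 0 in every library. Of the myeloid and dendritic list 7 genes were tested. Among these 3 fell and 2 rose, or 2 and 3 with library totals alone. Of the 7, 71.4% were called, against 52.9% of all tested genes. That share includes Lyz2, a weak gene that may have passed the filter through KO alone. The list summed to 70.3 to 76.1 CPM in the wild-type group and 66.7 to 68.0 CPM in KO. Most of that sum was Batf3 (60.8 ± 2.30 and 54.1 ± 1.23 CPM), Mpeg1 was at 4.13 ± 0.706 and 5.51 ± 0.514 CPM, Flt3 fell (log2 -0.68 ± 0.16), and Lyz2 was at 0.187 ± 0.0306 and 0.489 ± 0.113 CPM. In DESeq2 0 of the list were higher and 2 lower, with Lyz2 at an adjusted p of 0.0565 and Mpeg1 at 0.0547. Batf3 lost its call with library totals alone (0.202) and without KO replicate 2 or 3 or wild-type replicate 2 or 3, and Mpeg1 without KO replicate 2 or 3 or wild-type replicate 1.

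The 9 genes differed in how they followed each other over the 6 libraries. On log2 CPM, Pearson's r was 0.98 between Ighm and Ighd, 0.98 between Cd22 and Ighd, 0.91 between Cd79a and Cd22, and 0.79 between Ms4a1 and Pax5, but -0.82 between Ms4a1 and Ighm. These values describe 6 libraries that share the split by genotype. The genes most like the mean of the 9 were P3h4, Chn2, Pygb, Slfn1 and Tmem95, with r from 0.992 to 0.998 over 6 libraries. A value above 0.9 was reached by 628 of 12312 genes (5.10%), and none of the 5 is on the B cell lists.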

How the data were processed

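Values are whole-number counts by gene symbol for 6 libraries, in 1 table as the authors deposited it. Tools listed in the submitters' processing notes are HTSeq 0.6.1, STAR 2.5.2, Cufflinks, FastQC and DESeq2 1.12, with mm10 as the build and no roles stated. Per the labels' protocols, libraries came from a stranded mRNA kit. Not given in the sources used here are the strand setting, the annotation release and the treatment of reads matching several genes. In 27 rows, with 0.241% of counts, the symbol was a date, and these rows entered totals only.

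The test was edgeR 4.0.16 (R 4.3.3) with filterByExpr, TMM factors (0.949 to 1.03), the quasi-likelihood F test on 4 residual degrees of freedom, adjusted by Benjamini-Hochberg over 14209 genes and called at 0.05. The SE is the log2 fold change divided by the root of F. Exon lengths and positions are from GENCODE M21 (mm10), motifs from RefSeq windows. The floor was 3 counts, or 0.0864 to 0.121 CPM. Replicates within a group differed beyond sampling noise (chi-square per gene 2.54 to 13.2) and counted separately.

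Members and lists (10 lists, 127 entries, 126 in the table) were chosen with earlier results of these data known. All 9 members were named. For each list the 2 genes with the highest mean CPM and the 2 with the smallest adjusted p were named. The 3 variable rows with the highest mean and the 5 genes most correlated with the members, leaving out predicted and immunoglobulin genes, were named too. Other genes named are markers at or near 0, defining markers, or marked in the text. The search for protein motifs was not run, and 1 gene of the lists is not reported by name here.

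Alternatives were DESeq2 size factors, upper quartile factors, library totals, DESeq2 1.42.0, limma-voom 3.58.1, other filters, the replicate block, and each library left out. The code was also run on simulated counts, with far fewer changed genes than were called here. That run does not measure the error of the calls in these data. Figures used matplotlib 3.10.9.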

Additional observations from a re-analysis of the deposited data

How the results depend on the processing

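Cd22, Ighm and Ighd kept direction and call under all 14 alternatives, and Cd79a and Cr2 never passed (Cr2 under 13, since 1 CPM in 3 libraries removed it). Ms4a1 lost its call with DESeq2 size factors (log2 0.20, adjusted p = 0.0515), DESeq2 (0.19), limma-voom (0.20, adjusted p = 0.0533) and no filter (0.20, adjusted p = 0.0689). With library totals alone Pax5 passed (0.24), Igkc turned from -0.07 to 0.0054, and the summed CPM of the 9 genes in wild type was 536 in place of 550.1; the median of all tested genes moved from 0.01 to 0.08. That scaling made 62.0% of all calls higher, against 50.6%. Under a fold of at least 1.5 there were 2236 calls over all genes in place of 7513, 1 in place of 4 among the 9 and 2 in place of 17 among other B cell genes, and an adjusted p under 0.01 left 10 of those 17. These follow from the stricter thresholds. For the rest the cause was not tested.

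Leaving out 1 library at a time gave 5985 to 7534 calls over all genes, 3 to 4 among the 9 and 11 to 20 among other B cell genes. The fold changes ranged from -0.20 to -0.060 for Cd79b, 0.15 to 0.25 for Ms4a1 and 0.12 to 0.23 for Pax5.

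Deviations of same-numbered libraries correlated at 0.174, 0.125 and 0.0112, and those of differently numbered libraries at -0.172 to 0.105. These values do not settle whether replicate numbers pair the libraries, and the labels tie no number to an animal or day. With the replicate block there were 7900 calls over all genes, 4 among the 9 and 21 among other B cell genes, and Ms4a1 stood at 0.21. The block changed no call among the 9; of the named list genes, Cd74 (0.0439) and Ighg1 (0.0418) passed with it. The low counts of Cr2 limit what can be said of it.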
